A study of Mus musculus with 380 samples.

Results

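Fos, Fosb, Fosl2, Jun, Junb and Jund encode the AP-1 transcription factors of the Fos and Jun families, and they were followed here in T cells taken from mouse melanomas. They are 6 of the 23420 genes in the expression matrix, chosen by name and not by a threshold on their values. Fosl1, the other Fos-family gene in the matrix, is not among them: it was detected in at most 2.74% of the cells of any group and was at 0 in every population library. Cells came from B16F10 tumours, a transplantable melanoma, in C57BL/6 mice that were wild type (WT) or carried an Il27ra knockout label (IL27raKO). Il27ra encodes a chain of the receptor for interleukin-27. CD8 and CD4 cells of either genotype had a plate each, 4 in all, with 94 single cells and a population well that held many cells. RNA was read by Smart-seq2, which makes cDNA from each cell in its own well.

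Each genotype carries a single mouse code, so each group is 1 plate and no difference between plates could be tested. Ages are not given in the sources used here. WT CD4 titles carry p2 and those of the other plates p1, so the label difference in CD4 and the lineage difference in WT cannot be told apart from p1 against p2. A gene counts as detected above 1 FPKM (fragments per kilobase of transcript, relative to library size), and cells with fewer than 1000 genes detected were left out. This kept 72 cells of the WT CD8 plate, 80 of KO-labelled CD8, 79 of the WT CD4 plate and 73 of KO-labelled CD4. Plate values below are always given in that order. Il27ra itself was detected in 65.3%, 61.3%, 43.04% and 47.9% of the kept cells, so it does not check the knockout and the groups are called KO-labelled throughout.

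Proteins of the Fos family bind DNA only as pairs, mostly with a Jun partner, whereas Jun proteins can also pair with each other. Fos, Fosb, Jun and Junb are immediate-early genes that signals from the T cell receptor and MAP kinases switch on within minutes, while Fosl2 and Jund are usually induced later or kept at a steady level. In T cells, AP-1 pairs with NFAT at the promoters of cytokine genes, and BATF, another leucine zipper protein, takes the place of Fos in pairs with Jun proteins.

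Fos lies on chromosome 12 (chr12:85473890-85477273, plus strand) and Fosb on chromosome 7 (chr7:19302696-19310051, minus strand), in GRCm38 with GENCODE M21. Fosl2 lies at chr5:32135801-32157842 on the plus strand. Jun lies at chr4:95049034-95052222 and Junb at chr8:84974484-84978718, both on the minus strand, and Jund at chr8:70698949-70700616 on the plus strand. All are protein-coding genes. An antisense gene shares 689 bases with Jun (Junos) and another shares 919 bases with Jund (Gm11175), and Prdx2, which runs the other way, overlaps Junb. The Smart-seq2 protocol does not keep the strand, so strand does not show from which gene reads of the shared stretches came.

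The 250 bases before the RefSeq start are shown for Fos, Fosb and Junb (GRCm38.p6), the 3 members whose window holds the letters TGACG, the core of the cAMP response element. Fos covers chr12:85473640-85473889 on the plus strand, Fosb chr7:19310046-19310295 and Junb chr8:84978749-84978998, both on the minus strand. Capitals mark TGACG on the printed strand and, in Fos, the TATA box TATAAA.
Fos: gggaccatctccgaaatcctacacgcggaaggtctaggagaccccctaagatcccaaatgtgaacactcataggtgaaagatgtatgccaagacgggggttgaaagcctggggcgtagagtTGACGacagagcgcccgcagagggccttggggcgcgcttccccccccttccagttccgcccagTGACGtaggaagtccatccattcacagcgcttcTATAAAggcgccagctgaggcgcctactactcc
Fosb: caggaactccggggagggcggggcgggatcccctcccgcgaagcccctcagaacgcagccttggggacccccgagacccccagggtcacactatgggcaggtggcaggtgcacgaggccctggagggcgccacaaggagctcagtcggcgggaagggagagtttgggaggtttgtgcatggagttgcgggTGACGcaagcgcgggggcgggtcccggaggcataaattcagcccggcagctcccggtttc
Junb: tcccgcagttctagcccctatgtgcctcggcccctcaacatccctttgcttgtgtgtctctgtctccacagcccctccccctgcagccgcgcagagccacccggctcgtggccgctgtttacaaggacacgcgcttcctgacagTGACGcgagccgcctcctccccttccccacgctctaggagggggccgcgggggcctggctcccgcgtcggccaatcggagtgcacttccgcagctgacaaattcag
TGACG was chosen as a motif after the sequences were seen, and 17.8% of 32851 RefSeq promoters of the same length hold it on either strand. The windows of Fosl2, Jun and Jund lack it. TATAAA, which starts 33 bases before the start of Fos, occurs in 12.4% of all the promoters and in no other member. The GC box GGGCGG was found in Fos, Fosb, Fosl2 and Jun (32.7% of all promoters), and CCAAT in Jun and Junb (33.8%). None of the 6 windows holds the full cAMP response element TGACGTCA (1.55% of promoters), the AP-1 site TGANTCA (6.75%), the GAS element TTCNNNGAA (7.02%), which STAT factors bind, or a CArG box (1.47%). Only these spellings within the 250 bases were searched, so near matches and sites farther away were not counted. The Jun window, for instance, holds TGACATCA, a near match to TGACGTCA. The windows of Fosl2 and Jund belong to RefSeq starts that lie away from the GENCODE start of the gene.

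Plates differed in ways that bear on all 6 members. The median number of genes detected per kept cell was 3168, 2508, 2045 and 2218, and the wells had 10450 to 10946 genes. Cells with at least 3 of 10 cell cycle genes made up 61.1%, 33.75%, 43.04% and 23.3%. Foxp3, which marks regulatory T cells, was above threshold in 34.2% of the CD4 cells from WT and 57.5% of those with the KO label. The labelled lineages fit their coreceptors: Cd8a was detected in 84.7% and 90% of the CD8 plates and Cd4 in 89.9% and 84.9% of the CD4 plates. No pair of libraries held identical values.

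Fos was lowest in WT CD8 and highest in KO-labelled CD4 cells. Fos was found in 40.3% of WT CD8 cells (95% Clopper-Pearson interval 28.9 to 52.5), 55% of KO-labelled CD8 cells (43.5 to 66.2), 60.8% of WT CD4 cells (49.1 to 71.6) and 79.5% of KO-labelled CD4 cells (68.4 to 88.02). These and all intervals below cover counting error between cells only. Every plate had cells at 0 FPKM, the median cells stood at 0, 311.3, 158.2 and 1393 FPKM, and the highest at 2106, 5280, 8960 and 15239 FPKM. Single cells of all plates overlapped. Where Fos was detected its median was 219.9, 799.3, 914.9 and 2045 FPKM and again lowest in WT CD8 and highest in KO-labelled CD4. The 2 plates between them changed places, since KO-labelled CD8 had the higher median over all cells and WT CD4 the higher one where Fos was detected. On the scale log2(FPKM + 1) the mean over kept cells was 3.23 ± 4.08 (SD over 72 cells), 5.23 ± 4.85 (80 cells), 5.70 ± 4.89 (79 cells) and 8.65 ± 4.70 (73 cells). The wells read 631, 1317, 1365 and 3601 FPKM, lowest in WT CD8 and highest in KO-labelled CD4. KO-labelled CD8 and WT CD4 were neighbours in this order and their intervals overlapped. A well mixes cells, so a lower value there cannot tell fewer cells with a transcript from less of it per cell.

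Fosb, a close relative of Fos that is induced by the same signals, was the sparsest of the 3 Fos-family members followed. It was detected in 13.9% (6.87 to 24.1), 26.25% (17.04 to 37.3), 21.5% (13.1 to 32.2) and 45.2% (33.5 to 57.3) of cells. Its median was 0 FPKM in all plates, and the highest cells reached 26.1, 146.98, 123.9 and 361.2 FPKM. The wells read 6.11, 27.4, 11.8 and 44.65 FPKM. Both KO-labelled wells were higher than both WT wells, and in single cells the same held for the shares.

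Fosl2, which encodes FRA-2, followed another order, with KO-labelled CD8 cells highest. It was detected in 33.3% (22.7 to 45.4), 82.5% (72.4 to 90.1), 37.97% (27.3 to 49.6) and 57.5% (45.4 to 69.03) of cells. Median cells stood at 0, 46.8, 0 and 3.82 FPKM, and the highest at 118.7, 1210, 482.6 and 540.9 FPKM. The mean on the log2 scale was 1.11 ± 1.68, 4.69 ± 2.97, 2.03 ± 2.91 and 3.08 ± 3.17 (SD over cells). Among cells that had it, the median was 6.07 FPKM in WT CD8 cells and 59.9, 25.0 and 64.9 FPKM in the others. WT CD8 cells were therefore low both in how often Fosl2 was seen and in its level where seen. The wells, at 27.1, 83.2, 64.3 and 103.8 FPKM, also put WT CD8 lowest but put KO-labelled CD4 highest.

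Junb was the most abundant Jun gene and the one detected most often of all 6. It encodes a Jun protein that pairs with Fos proteins and with BATF. It was detected in 77.8% (66.4 to 86.7), 93.75% (86.0 to 97.9), 96.2% (89.3 to 99.2) and 93.2% (84.7 to 97.7) of cells. Median cells stood at 525.9, 2101, 1902 and 4086 FPKM, and the highest at 4559, 9769, 8350 and 18481 FPKM. The mean on the log2 scale was 7.19 ± 4.39, 10.45 ± 3.00, 10.48 ± 2.44 and 11.04 ± 3.21. WT CD8 cells were the low plate, and the KO-labelled CD8 and WT CD4 plates lay 0.03 apart. The wells read 1677, 5114, 3933 and 7512 FPKM. Prdx2, whose gene overlaps Junb, did not follow it: Prdx2 was detected in 68.1%, 33.75%, 41.8% and 41.1% of cells, and its wells read 487.2, 186.2, 472.8 and 432.2 FPKM.

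Jun, which encodes the founding Jun protein and the usual partner of Fos, was seen in a minority of cells on every plate. It was detected in 6.94% (2.29 to 15.5), 27.5% (18.1 to 38.6), 30.4% (20.5 to 41.8) and 38.4% (27.2 to 50.5) of cells. The median cell was at 0 FPKM throughout, and the highest reached 509, 557.7, 902.9 and 2392 FPKM. In WT CD8 only 5 of 72 cells had Jun. The wells read 85.4, 115.8, 109.5 and 316.7 FPKM, so Jun was present in the WT CD8 well at a level near that of the next 2 plates. The mean over WT CD8 cells was 0.094 of the well's value, against 0.342, 0.772 and 0.482 on the other plates.

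Jund, which is transcribed at a steady level in many cell types, gave the lowest well values of the 6. It was detected in 27.8% (17.9 to 39.6), 20% (11.9 to 30.4), 17.7% (10.04 to 27.9) and 24.7% (15.3 to 36.1) of cells, and the intervals of all plates overlapped. In WT CD8 cells it was seen more often than Fosb or Jun. The highest cell held 61.1 FPKM, and the wells read 3.20, 0.52, 1.76 and 2.14 FPKM. Its transcript has a GC content of 67.1%, higher than 99.7% of the 19347 genes with a GC value, and that of Junb is 62.6%.

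**Figure D1:**
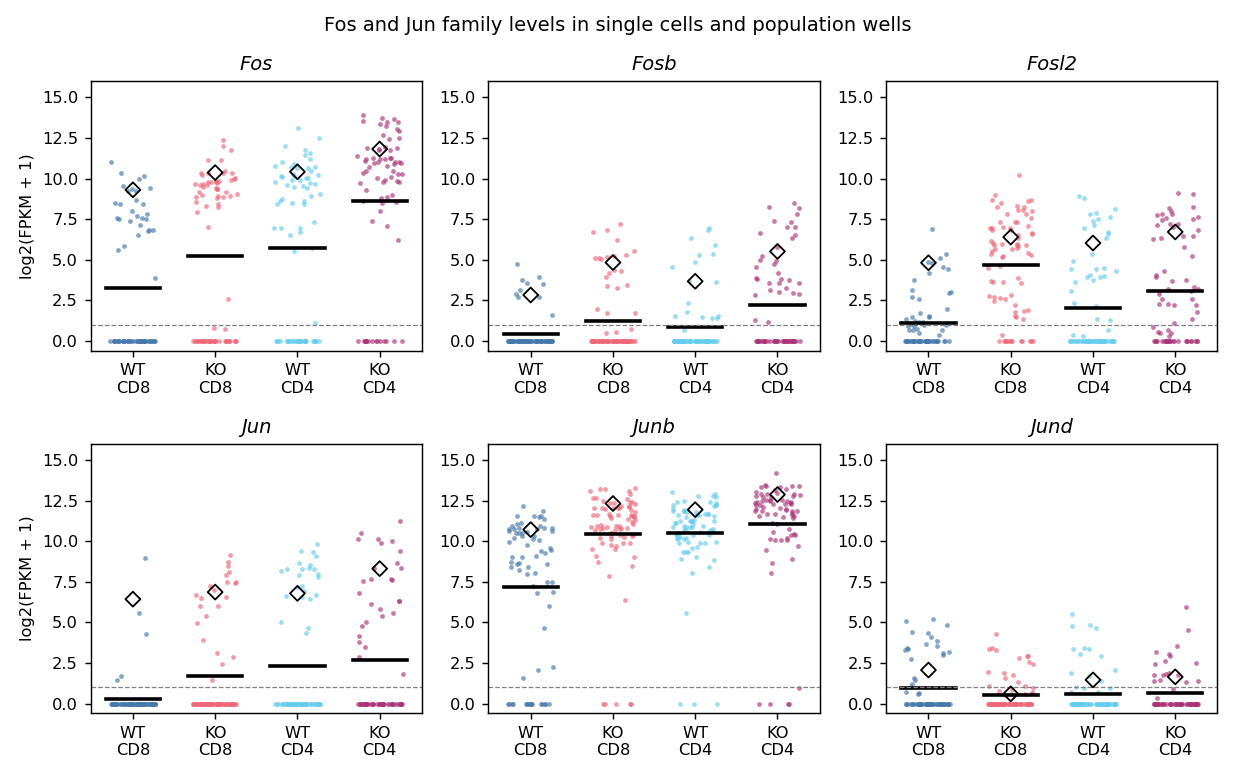
Level of each member in single cells and wells, as log2(FPKM + 1) on the vertical axis, for the 4 plates on the horizontal axis. Points are kept cells, black bars their means, open diamonds the population wells and the dashed line the detection threshold of 1 FPKM. Fos and Junb had the highest cells, and WT CD8 cells had the lowest mean for all members but Jund.

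In CD8 cells, 4 of the 6 members were higher by at least 1 log2 on the KO-labelled plate, and none was lower by that much. Of the 6599 genes compared (detected in at least 20% of the cells of either plate), 3.00% were that much higher and 19.5% that much lower, and the median of all was -0.46. Fosl2 differed most, by 3.58, and its mean level was 104.6 FPKM against 5.22 FPKM in WT, a ratio of 20.05. Junb differed by 3.26, with a mean of 2943 against 929.2 FPKM. Fos differed by 2.00 and Jun by 1.38. Fosb differed by 0.77 and Jund by -0.40, close to the median gene. Prdx2 differed by -3.12, opposite to Junb, and the part of reads from their shared stretch was not tested. Jun and Fosb passed the filter on low values only through the KO-labelled plate, where they were higher.

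The WT and KO-labelled CD8 plates also differed in genes detected and in the cell cycle, with all 10 cell cycle genes lower by at least 1 log2 on the KO-labelled plate (median -1.96). When cells were matched on genes detected (43 cells of each plate, in bins of 500 genes), the differences were 3.31 for Fosl2, 3.01 for Junb, 2.09 for Fos, 1.44 for Jun, 0.99 for Fosb and -0.24 for Jund. Without cycling cells, Fosl2 differed by 3.79, Junb by 2.45 and Fos by 1.72. In the wells 4 members were higher by at least 1 log2, where 18.6% of 11875 genes were. They were Fosb (2.00), Junb (1.61), Fosl2 (1.58) and Fos (1.06), while Jun differed by 0.44 and Jund by -1.47. For Jund this rests on 0.52 against 3.20 FPKM, the former below the detection threshold.

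In CD4 cells, 3 of the 6 members were higher by at least 1 log2 on the KO-labelled plate and none lower, where 8.75% of 4687 genes were that much higher and 1.51% that much lower. Fos differed by 2.94, with a mean of 2787 against 802 FPKM. Fosb differed by 1.39. Fosl2 differed by 1.05, which was not firm: it was 0.53 with a pseudocount of 10, 0.74 with no cell filter, 0.89 without cycling cells and 0.71 on the log2 of the mean FPKM. The Jun family differed less: Junb differed by 0.56, Jun by 0.38 and Jund by 0.04, against a median of 0.16 over all genes compared. Jund passed the filter on low values only through the KO-labelled plate. Matching on genes detected (63 cells of each plate) gave 3.12 for Fos, 1.47 for Fosb, 1.03 for Fosl2, 0.58 for Jun, 0.39 for Junb and 0.03 for Jund.

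The CD4 wells gave a different picture of Jun. There 3 members were higher by at least 1 log2, where 19.9% of 11746 genes were, and these were Fosb (1.84), Jun (1.52) and Fos (1.40). Junb differed by 0.93 and Fosl2 by 0.68. Jun, at 316.7 against 109.5 FPKM, was thus 2.89 times higher in the KO-labelled well, whereas its detection in single cells was 38.4% against 30.4%, with overlapping intervals.

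CD4 cells had more Fos than CD8 cells under either label. Between the WT plates, 3 members were higher in CD4 by at least 1 log2 and none lower, where 2.16% of 6524 genes were higher, 37.2% were lower and the median gene differed by -0.76. Junb differed by 3.29, Fos by 2.47 and Jun by 1.99. Fosl2 differed by 0.92, Fosb by 0.38 and Jund by -0.35. Jun and Fosb passed the filter on low values only through the CD4 plate, where they were higher, and Jund only through the CD8 plate. After matching on genes detected (35 cells of each plate) Junb differed by 3.97, Fos by 2.08 and Jun by 1.75, and Fosl2 by only 0.28. In the wells Junb (1.23), Fosl2 (1.21) and Fos (1.11) were higher by at least 1 log2, where 18.9% of 11845 genes were.

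Among KO-labelled cells, 2 members were higher in CD4 by at least 1 log2, where 4.63% of 5286 genes were, and Fosl2 was lower, where 11.1% were. Fos differed by 3.41 and Fosb by 1.00, the latter at the edge of the threshold. Jun, at 0.99, lay just under it, and Junb differed by 0.60 and Jund by 0.08. Fosl2 differed by -1.60, and it was detected in 57.5% of CD4 against 82.5% of CD8 cells. The wells did not share that direction, since Fosl2 read 103.8 in the CD4 well and 83.2 FPKM in the CD8 well, a difference of 0.32. In the wells Fos (1.45), Jun (1.44) and Jund (1.05) were higher by at least 1 log2, where 18.5% of 11857 genes were. For Jund this rests on 2.14 against 0.52 FPKM, the latter below the detection threshold.

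The label difference was not of one size in both lineages. Subtracting the CD8 value from the CD4 value gave -2.70 for Junb, -2.53 for Fosl2 and -1.0 for Jun, and 0.94 for Fos, 0.62 for Fosb and 0.44 for Jund. In the wells the same subtraction gave -0.67 for Junb, -0.90 for Fosl2, 1.09 for Jun, 0.34 for Fos, -0.16 for Fosb and 1.65 for Jund, whose wells read only 0.52 to 3.20 FPKM. Junb and Fosl2 had the larger label difference in CD8 by both readings, and Jun did so in cells only. Fosb also changed sign between cells and wells. These differences of differences could not be tested with 1 plate per group. The CD8 and WT values share plates with the lineage comparisons above, so they are not separate evidence.

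**Figure D2:**
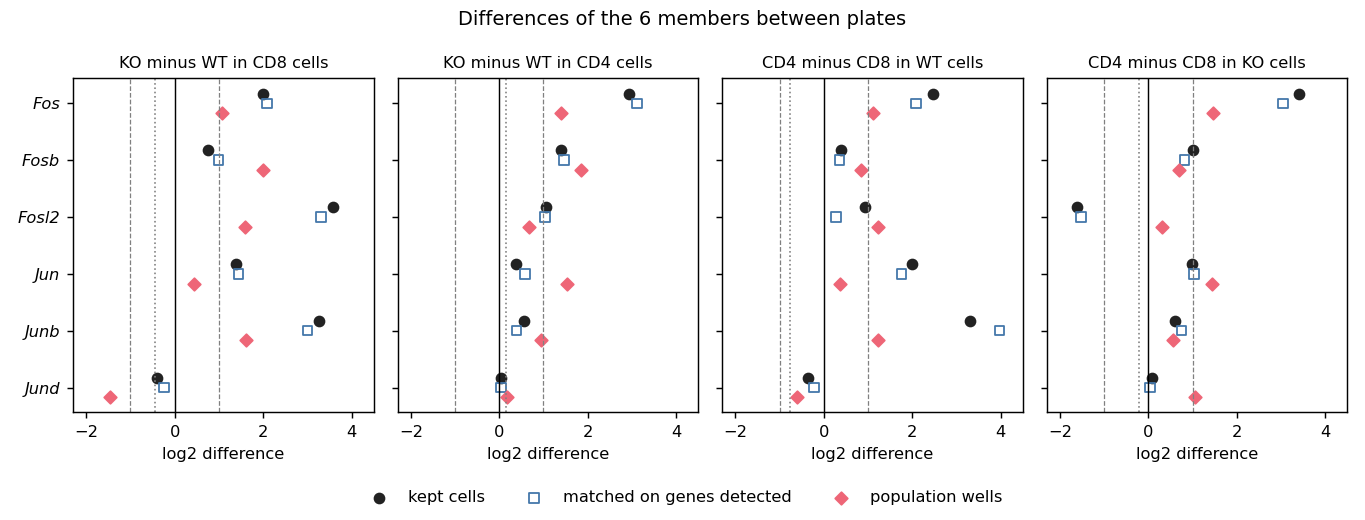
Log2 difference of each member (horizontal axis) in the 4 comparisons, from all kept cells, from cells matched on genes detected and from the population wells. Dashed lines mark 1 log2 and the dotted line the median of all genes compared in cells, and Fos lay beyond 1 in all 4 comparisons by each reading.

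Co-detection of the 6 members was lowest in WT CD8 and highest in KO-labelled CD4 cells. The median cell had 2, 3, 3 and 4 members detected. At least 4 of the 6 were detected in 13.9% (6.87 to 24.1), 32.5% (22.4 to 43.9), 25.3% (16.2 to 36.4) and 52.1% (40.04 to 63.9) of cells. Cells with none of the 6 made up 15.3% of WT CD8 cells (7.88 to 25.7) and 2.5%, 2.53% and 2.74% of the others. No WT CD8 cell had all 6, which allows a share of up to 4.17%, while 3, 2 and 2 cells of the other plates did. Some housekeeping genes were also missed in WT CD8 cells. Eef1a1, Ppia and B2m, named after their values were seen, were detected in 88.9%, 90.3% and 90.3% of them and in 97.47% to 100% on the other plates. Tbp and Hprt were instead detected most often in WT CD8. The part of such losses in the cells with no member was not tested.

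A Fos protein needs a partner, and cells with transcripts of both families were most cells on every plate. At least 1 Fos-family and 1 Jun-family gene were detected together in 54.2% (42.004 to 65.98), 90% (81.2 to 95.6), 73.4% (62.3 to 82.7) and 87.7% (77.9 to 94.2) of cells. Cells with a Jun-family gene but no Fos-family gene made up 29.2%, 5%, 22.8% and 8.22%, so this class was larger on both WT plates. The reverse, a Fos-family gene with no Jun-family gene, was found in 1, 2, 1 and 1 cells. The founding pair, Fos with Jun, was detected together in 5.56% (1.53 to 13.6), 20% (11.9 to 30.4), 24.1% (15.1 to 34.98) and 36.99% (25.97 to 49.1) of cells. Fos with Junb was far more common, at 37.5%, 53.75%, 60.8% and 78.1%. Fosl2 with Junb was detected in 30.6%, 80%, 36.7% and 56.2%. In KO-labelled CD8 cells the share with Junb and Fosl2 stood above that with Junb and Fos, and on the other 3 plates below it. Junb alone was detected in 77.8% to 96.2% of cells, so pairs with it largely repeat the share of the other gene. In KO-labelled CD8 cells Fosl2 alone was at 82.5% and Fos alone at 55%, and on the other plates Fosl2 alone was below Fos alone. Shares expected from the single detections were not computed, so these values do not show pairing.

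**Figure D3:**
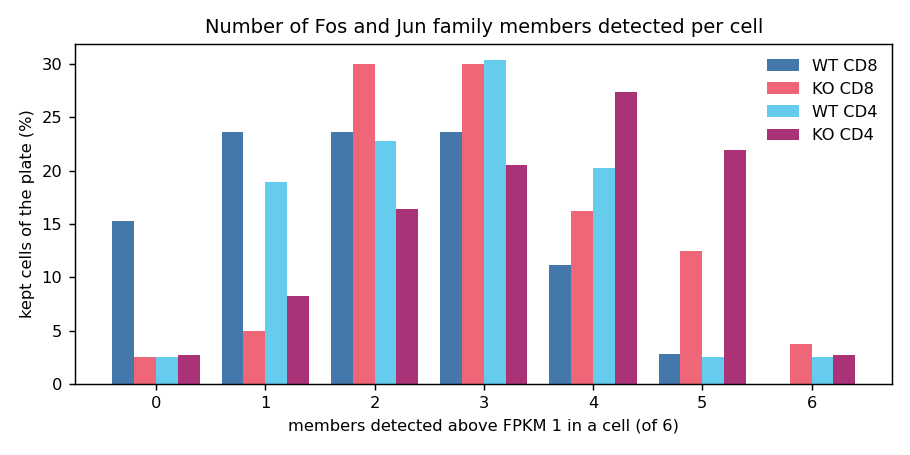
Percentage of the kept cells of each plate (vertical axis) by the number of the 6 members detected above 1 FPKM in a cell (horizontal axis). WT CD8 cells filled the low classes, with 15.3% at none, and KO-labelled CD4 cells the high ones, with 27.4% at 4 and 21.9% at 5.

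Most cells with Fosb also had Fos. In KO-labelled CD4 cells, all 33 cells with Fosb also had Fos, which is 56.9% of the 58 cells with Fos. It was found in 0 of the 15 cells without Fos, which allows a share of up to 20%. On the other plates 70%, 85.7% and 88.2% of the cells with Fosb had Fos, against 35.5%, 44.1% and 53.2% of cells without Fosb. Junb was detected in all cells with Fosb on all plates, but also in 74.2%, 91.5%, 95.2% and 87.5% of the cells without Fosb. Jun was also found mostly where Fos was: 80%, 72.7%, 79.2% and 96.4% of cells with Jun had Fos, against 37.3%, 48.3%, 52.7% and 68.9% of those without, although only 5 WT CD8 cells had Jun.

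Levels of the pairs ranged from moderately correlated to uncorrelated. The Spearman correlation over the kept cells of a plate, averaged over the 4 plates, was 0.43 for Fos with Fosb (0.21 to 0.63 by plate), 0.32 for Fos with Junb (0.17 to 0.41) and 0.24 for Fos with Jun (0.17 to 0.40). Fosl2 followed Junb, at 0.34 (0.20 to 0.49), but not Fosb (0.01) or Jun (0.02). Fosl2 with Fos ranged from -0.05 in KO-labelled CD8 to 0.41 in WT CD8 cells. Jun and Junb, which belong to the same family, averaged -0.02. Fos with Fosl2 averaged 0.18, and Jund averaged 0.21 with Fosb and 0.19 with Fos. These are descriptions over cells that share a plate and differ in depth. The correlation of a member with the number of genes detected lay between -0.24 (Fosl2, WT CD4) and 0.31 (Jund, WT CD8), and its part in the pairs was not tested.

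**Figure D4:**
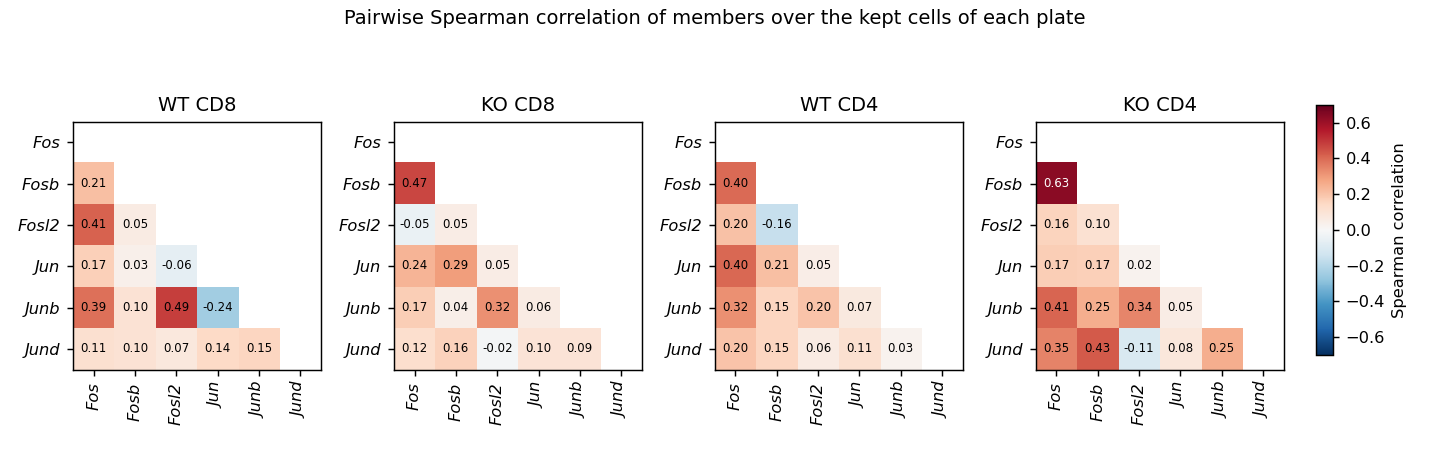
Spearman correlation of each pair of members over the kept cells of each plate, as numbers and colour (scale at the right). Fos with Fosb reached 0.63 in KO-labelled CD4 cells, and Fosl2 correlated with Junb on every plate.

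Genes most like each member were ranked by the same averaged correlation, over 4 plates, among 3341 genes detected in at least 20% of the cells of every plate. Fosb (13.9% of WT CD8 cells), Jun (6.94% there) and Jund (17.7% of WT CD4 cells) fell below that share and could not be listed. Fos correlated with Fosb at 0.43, above the first gene listed for it here. For Fos they were Zfp36 (0.39), which encodes an RNA-binding protein that speeds decay of cytokine mRNAs, Tagap (0.36), Cd69 (0.36), an early activation marker, Junb (0.32) and Btg2 (0.29). Fosb had Fos first, then Cd69 (0.31), Tagap (0.30), Nr4a1 (0.29), a nuclear receptor induced by the T cell receptor, and Gadd45b (0.25). For Junb they were Btg2 (0.40), Tnfaip3 (0.38), which encodes the NF-kB inhibitor A20, Ier2 (0.37), Zfp36 (0.34) and Ppp1r15a (0.34). Fos and Junb thus shared Zfp36 and Btg2 among their nearest genes.

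The lists of the other members shared single genes with these. Fosl2 had Junb first, then Ifngr1 (0.25), a chain of the interferon gamma receptor, Dennd4a (0.24), Vps37b (0.22) and Srsf2 (0.22). Jun had Twf2 (0.25), Fos (0.24), Rps9 (0.24) and Rplp0 (0.22), of which Rps9 and Rplp0 encode ribosomal proteins. Jund had Tceb2 (0.27), Rgs19 (0.25), Gadd45b (0.25), Sik1 (0.25) and Mdm2 (0.25). Correlations of this size in sparse counts describe these cells and no more.

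Within plates, cells with Cd69 had Fos and Junb more often than cells without. Fos was detected in 61.3% of the 31 WT CD8 cells with Cd69 (42.2 to 78.2) and 24.4% of the 41 without (12.4 to 40.3). In KO-labelled CD8 cells the shares were 61.8% and 40%, in WT CD4 cells 75.6% and 44.7%, and in KO-labelled CD4 cells 83.3% and 68.4%. Junb was detected in 96.8% of WT CD8 cells with Cd69 against 63.4% without, and in all cells with Cd69 on the other 3 plates. Without Cd69 the shares on those plates were 80%, 92.1% and 73.7%. Fosb shares were also higher with Cd69 on each plate, at 29.03% against 2.44% in WT CD8 and 50% against 31.6% in KO-labelled CD4. Fosl2 had no one direction: with and without Cd69 it was detected in 38.7% and 29.3% of WT CD8 cells and 83.6% and 80% of KO-labelled CD8 cells, but in 31.7% and 44.7% of WT CD4 cells and 55.6% and 63.2% of KO-labelled CD4 cells. Median genes detected were 4058 with and 2419 without Cd69 in WT CD8 cells, but 2189 and 2310 in KO-labelled CD4 cells. The part of depth in WT CD8 was not tested.

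**Figure D5:**
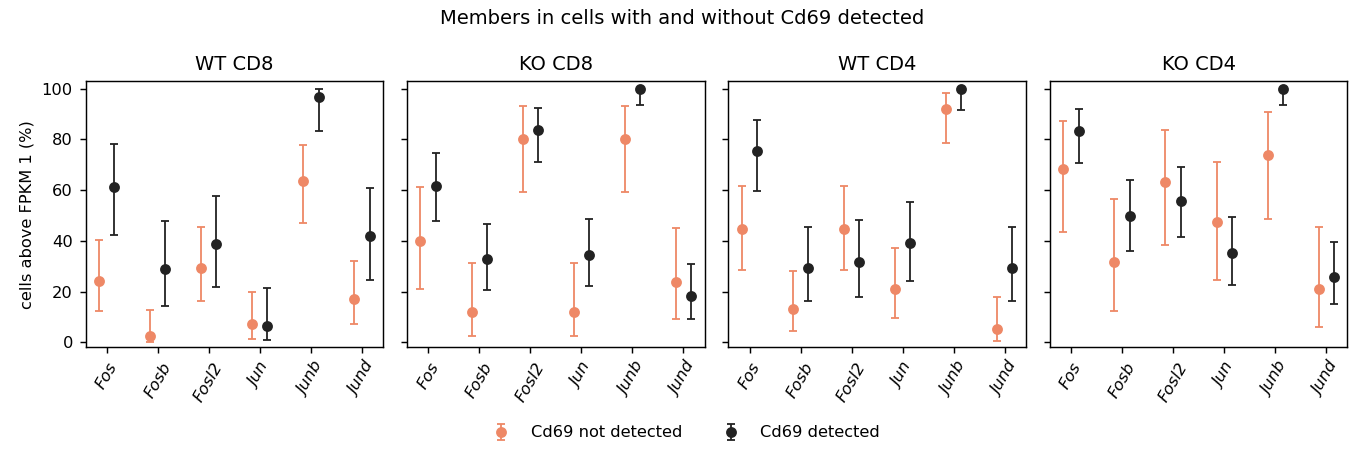
Percentage of cells with each member above 1 FPKM (vertical axis), for cells with and without Cd69 detected, by plate. Bars are 95% Clopper-Pearson intervals, which cover counting error only, and Fos, Fosb and Junb stood higher with Cd69 on all plates.

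WT CD8 cells with Tcf7, a factor of naive and memory-like T cells, were few but rich in Fos and Junb. Fos was detected in 72.7% of the 11 cells with Tcf7 (39.03 to 93.98) and 34.4% of the 61 without (22.7 to 47.7). Junb was detected in 100% against 73.8%. Those 11 cells had fewer genes detected than the rest, with medians of 2434 and 3438. On the KO-labelled CD8 plate 48 cells had Tcf7, and Fos was detected in 58.3% of them and 50% of the rest. Pdcd1, the PD-1 checkpoint receptor, split WT CD8 cells the other way for Fos, with 36% of the 50 cells that had it (22.9 to 50.8) against 50% of the 22 that did not (28.2 to 71.8). All other members were detected more often with Pdcd1 there, such as Junb at 84% against 63.6%. Median genes detected were 4039 with and 2155 without Pdcd1, and the part of depth was not tested. Fos was also lower with Pdcd1 on both KO-labelled plates (50% against 57.4%, 73.9% against 82%), but higher in WT CD4 (68% against 57.4%).

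Within the KO-labelled plates, Fos was detected in 59.2% of CD8 cells with Il27ra against 48.4% of those without, and in 80% against 78.9% of CD4 cells. Foxp3-detected cells, more frequent on the KO-labelled CD4 plate, had Fos in 83.3% of cells against 74.2% without Foxp3, and in WT CD4 in 59.3% against 61.5%. Without the Foxp3-detected CD4 cells, Fos differed by 2.36 between the labels, Fosb by 1.78, Fosl2 by 1.09 and Junb by 0.92. Jun then differed by -0.60, the opposite direction to the 0.38 over all kept CD4 cells.

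Other genes that respond early to stimulation were higher with the same label. Of 19 such genes, 13 were compared in CD8 and 8 of these were higher by at least 1 log2 and none lower, with a median of 1.60 against -0.46 over all genes. Of all genes compared there, 3.00% were higher and 19.5% lower. In CD4, 12 of 13 were higher and none lower, with a median of 1.84 against 0.16, where 8.75% of all genes were higher and 1.51% lower. Among these 12, Egr2, Nr4a3 and Myc passed the filter on low values only through the KO-labelled plate. They were detected in 8.86%, 18.99% and 12.7% of the WT cells. Ier2 differed by 2.92 in CD8 and 3.71 in CD4, Cd69 by 3.40 and 2.62, Nr4a1 by 1.84 and 1.67, and Egr1, a zinc finger factor, by 0.85 and 1.95. Between lineages, 5 of 13 were higher in CD4 and 2 lower in WT (median 0.62), and 8 of 14 were higher and 1 lower in KO-labelled cells (median 1.03). Of all genes compared, 2.16% were higher and 37.2% lower in WT, and 4.63% and 11.1% in KO-labelled cells. Egr2, higher in KO-labelled cells, passed the filter there only through CD4. Nr4a2 under either label and Myc in WT, which were lower, passed only through CD8. These lists were drawn up with earlier results of these data known and are a description, not independent support.

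Feedback genes, which shorten signals or early transcripts, were higher in part. Of 14, 13 were compared in CD8 with 5 higher and none lower (median 0.63), and 11 in CD4 with 5 higher and 1 lower (median 0.72). Of all genes compared, 3.00% were higher and 19.5% lower in CD8 (median -0.46), and 8.75% and 1.51% in CD4 (median 0.16). Dusp1, a MAP kinase phosphatase, differed by 2.26 in CD8 and 2.99 in CD4, and Zfp36 by 0.85 and 1.23. Dusp2, another such phosphatase, differed by -0.03 and -0.47. Zfp36 had its largest differences between lineages, at 3.48 in WT and 3.85 in KO-labelled cells.

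Few genes upstream of AP-1 were past 1 log2 between the labels. Of 22 kinases and factors, 21 were in the matrix. In CD8, 15 were compared with none higher and 1 lower (median -0.18, against -0.46 over all genes), where 19.5% of all genes were lower. In CD4, 13 were compared with none in either direction (median 0.07, against 0.16). Between lineages, 6 of 15 were lower in CD4 in WT, where 37.2% of all genes were. In KO-labelled cells 1 of 13 was, where 11.1% were, and none was higher under either label. Between the labels Nfatc1, an NFAT factor, differed by 0.17 in CD8 and -0.55 in CD4. Srf differed by -0.28 in CD8, and Mapk8, which encodes JNK1, was too sparse to compare, at 8.86% to 11.25% of cells. Of 17 other leucine zipper genes, 8 were compared in CD8 with none higher and 1 lower, and 7 in CD4 with 3 higher and none lower, where 8.75% of all genes were higher. The medians were 0.09 in CD8 and 0.16 in CD4. The 3 were Crem (1.89), Nfil3 (1.29) and Atf4 (1.03), named after their values were seen. Nfil3 passed the filter on low values only through the KO-labelled plate (11.4% of WT and 27.4% of KO-labelled cells). The lower one was Batf, which differed by -1.61 in CD8, where its wells read 548.4 in WT and 162.7 FPKM in KO-labelled cells, and by 0.04 in CD4. Atf3, Maff and Bach2 were detected in at most 15% of cells on any plate. The wells, 1 per plate, read 43.2, 37.2, 0 and 362.1 FPKM for Atf3, and at most 8.09 FPKM for Maff and Bach2.

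Genes known as AP-1 targets were split. Of 15, 11 were compared in CD8 with 3 higher and 5 lower (median -0.07), and 7 in CD4 with 4 higher and none lower (median 1.85). Of all genes compared, 3.00% were higher and 19.5% lower in CD8 (median -0.46), and 8.75% and 1.51% in CD4 (median 0.16). These shares also stand beside the heat shock and housekeeping counts below. Among the targets that were higher, Xcl1 and Tnfsf8 in CD8 and Tnf in CD4 passed the filter on low values only through the KO-labelled plate. They were detected in 12.5%, 4.17% and 12.7% of the WT cells. Ccl3 and Havcr2, both lower in CD8, passed only through the WT plate. Cd69, counted above, is on this list too. Ifng differed by 0.02 in CD8 cells but read 741 in the KO-labelled and 143.3 FPKM in the WT well, and Il2 was detected in 1.39% to 6.25% of cells. Of 10 heat shock genes, 8 were compared in CD8 with 2 higher and 1 lower (median -0.07) and 8 in CD4 with 1 higher and none lower (median 0.49). Hsph1, the one higher in CD4, passed the filter only through the KO-labelled plate (11.4% of WT and 28.8% of KO-labelled cells). Hspa1a was detected in 2.5% to 5.48% of cells, Dnajb1 differed by -0.08 and 0.87, and Hsp90aa1 by -0.16 and 0.27. Of 8 housekeeping genes, 3 were higher in CD8 (median 0.71) and 1 in CD4 (median 0.42), and none was lower. Early-response genes as a class are also known to be induced while tissue is taken apart, and the part of handling in these differences was not tested.

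Markers of other cells were at or near 0 in most single cells, high in a few, and present in the wells. At least 2 of the 6 myeloid genes measured were detected in 0%, 1.25%, 3.80% and 4.11% of cells, and the summed level of the wells was 1972, 882.7, 48.4 and 3331 FPKM. In single cells the sum ran from 0 to 578.6, 1106, 74331 and 31490 FPKM, with a median of 0 on each plate, and C1qa, a macrophage gene, was at 0 in all wells but WT CD8. Of 5 dendritic cell genes, at least 2 were seen in 8.33%, 2.5%, 8.86% and 10.96% of cells, and at least 1 in 25%, 21.25%, 26.6% and 41.1%. Their sum reached 2655, 9416, 77841 and 53294 FPKM in single cells and was 4249, 1888, 154.03 and 3116 FPKM in the wells. At least 2 melanoma genes were detected in 5.56%, 0%, 0% and 2.74% of cells. The KO-labelled CD4 well, highest for Fos and Junb, was also highest for myeloid genes, while the WT CD8 well, lowest for Fos and Junb, was highest for dendritic cell genes. The part of other cells in the well values was not tested. In single cells, a stricter rule left out 7, 1, 3 and 5 cells, those with no T cell gene, at least 2 myeloid, melanoma or B cell genes, or at least 3 dendritic cell genes, so some cells with 2 dendritic cell genes stayed. This gave 1.86 for Fos, 3.25 for Junb and 3.61 for Fosl2 between the labels in CD8, and 2.91 for Fos in CD4. Without them Fosl2 differed by 0.995 between the labels in CD4 and Fosb by 0.97 between the lineages in KO-labelled cells, each just under 1.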

How the data were processed

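The authors deposited 1 matrix of FPKM values (fragments per kilobase, relative to library size) for 380 libraries, TMM-normalized per the labels. RSEM, Bowtie and mm10 are named per the submitters' processing notes, and their versions are not given in the sources used here. All columns matched a sample (0 without one). Reads per library were not recovered, so genes above FPKM 1 stand for depth.

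Kept cells had at least 1000 genes above FPKM 1. A difference is that of the mean log2(FPKM + 1), pseudocount 1, over the kept cells of 2 plates, and 1 log2 counts as higher or lower. Genes were compared when detected in at least 20% of the cells of either plate. Shares carry Clopper-Pearson 95% intervals, and beside a share of 0 stands the limit from 3 cells. No test was run, because each group is 1 plate. Genes named were the 6 members, the 5 genes most like each, and 20 genes fixed by name from the lists. The few others named (Prdx2, Fosl1, Crem, Nfil3, Atf4, Foxp3, Tcf7, Pdcd1, Il27ra, coreceptors, C1qa, housekeeping genes, antisense genes) serve as checks, splits, markers, overlaps or family members. Egr2, Nr4a2, Nr4a3, Myc, Tnf, Xcl1, Tnfsf8, Ccl3, Havcr2 and Hsph1 are named only to show what passed the filter through 1 plate. Some genes that the rule names are not reported here. The members and lists were chosen with earlier results of these data known. Coordinates come from GENCODE M21 (GRCm38, the same assembly as mm10) and promoters from RefSeq. The scripts used Python 3.11.15, numpy 2.4.6, pandas 2.3.3, scipy 1.17.1 and matplotlib 3.10.9, and were tested on simulated data. Alternatives were other pseudocounts, cell filters, scalings, depth matching, leaving out cycling, Foxp3-detected or marker-holding cells, and the wells.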

Additional observations from a re-analysis of the deposited data

How the results depend on the processing

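Fos kept its direction and stayed beyond 1 log2 in all 4 comparisons under each alternative, from 1.06 (wells) to 4.17. In CD8 cells Fosl2 ranged from 1.58 to 4.96 and Junb from 1.61 to 3.81 between the labels, and Jun in CD4 cells from -0.60 to 1.52. Fosl2 between lineages in KO-labelled cells reversed in the wells, to 0.32 from -1.60. The count of members lower between the labels in CD8 went from 0 to 1 with the log2 of the mean FPKM and in the wells. That member was Jund, whose KO-labelled CD8 well, at 0.52 FPKM, lay below the detection threshold. The count higher between the labels in CD4 fell from 3 to 1 with a pseudocount of 10. The count higher between lineages in WT rose from 3 to 5 with the log2 of the mean FPKM. In KO-labelled cells the count higher between lineages fell from 2 to 1 with a pseudocount of 10, with no cell filter, and without cells holding other cell types' markers (an alternative chosen after seeing the data). There the count lower fell from 1 to 0 with a pseudocount of 10, with the log2 of the mean FPKM and in the wells. Without cycling cells, Fos and Jun together fell to 0% of the 28 remaining WT CD8 cells, which allows up to 10.7%, and at least 4 members to 3.57%. With detection above FPKM 10, at least 4 members were detected in 1.39% of WT CD8, 15.2% of WT CD4 and 30.1% of KO-labelled CD4 cells. The cause was not tested. With no filter on low values, the share of genes higher and lower became 1.38% and 8.76% between the labels in CD8, 3.01% and 0.516% in CD4, 1.01% and 16.4% between lineages in WT, and 1.86% and 4.27% in KO-labelled cells, since more sparse genes were counted. No paired analysis was possible because each group is 1 plate and no test was run.

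With 1 plate per group and 1 mouse code per genotype, label, animal and plate cannot be told apart, nor can lineage and plate, and intervals cover counting error between cells only. Cells with few genes detected limit what can be said of sparse members such as Fosb, Jun and Jund, where a value of 0 FPKM is not an absence of the transcript.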
